A study of Mus musculus with 14 samples.

Results

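The comparison of 4 weeks of cuprizone with untreated corpus callosum took in 8 of the 14 arrays of the series, namely 4 arrays of male mice fed powdered chow with 0.2 to 0.4% cuprizone for 4 weeks (4wd) and 4 arrays of male mice kept on a normal diet (control). Groups were read from the sample titles, each array held total RNA of the corpus callosum of 1 mouse, and all 566 mouse miRNAs on the array were members of the comparison. The other 6 arrays, from mice returned to regular diet, entered the fit to estimate the spread. They also entered the set of miRNAs used for scaling, the choice of miRNAs to test and the floor, under which no signal was allowed. Their signals were not part of the difference itself, but the floor affects the difference of a miRNA with values at it. The mice were young adults at the start of the diet, the controls were chosen by the study to cover the ages of its treated mice, and the strain of the mice on these arrays is not given in the sources used here. The tissue was punched out according to the labels and cut from sections with a knife according to the methods, and the RNA came from whole tissue, so that neurons' axons, glia, vessels and blood all contribute to each value.

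Cuprizone is a copper chelator that kills mature oligodendrocytes, the cells that wrap axons of the corpus callosum in myelin. Microglia and astrocytes respond to the dying myelin and become abundant in the lesion. A miRNA is a short RNA, cut from a hairpin precursor, that guides the Argonaute protein to messenger RNAs. Pairing rests mostly on the seed, bases 2 to 8 of the mature miRNA, and miRNAs with the same seed share many targets. In this tissue miR-219 and miR-338 are known for their role in oligodendrocyte maturation, miR-155 and miR-146a for the inflammatory response of microglia and macrophages, and miR-142 and miR-223 as miRNAs of blood-derived cells.

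The signal of each miRNA was the total over its probes, scaled to the 75th percentile of its array and taken to log2, so that 0 is the signal of the 75th percentile miRNA of the array and a difference of 1 is a doubling. All values below are on this scale unless another is named, and a difference is always 4wd minus control. A call needed an adjusted p under 0.05 in limma and at least a 2-fold difference. Testing was limited to the 225 miRNAs that all arrays of some group detected. Of these, 1 was called higher at 4wd (0.444% of those tested) and 0 were called lower. That count of 0 stands beside 9 miRNAs that were lower at an unadjusted p under 0.05 (4% of those tested), while 14 were higher at that level (6.22%). The remaining 202 tested miRNAs had an unadjusted p of 0.05 or more. The median SE of a difference was 0.32, and the median difference over all 225 miRNAs was 0.03, with 117 above 0 (52%).

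Before the single miRNAs, 4 facts of the arrays bear on the values. The 4wd arrays were dimmer: they detected 210 to 240 mouse miRNAs against 236 to 287 on control arrays, with a summed raw signal of 50187 to 90452 against 85417 to 173924, ranges that overlap in both measures (exact two-sided permutation p = 0.0571 and p = 0.0857, where the smallest p that 4 against 4 arrays allow is 0.0286). The arrays lay on 2 slides, each with 2 control and 2 4wd arrays, and all differences are therefore also given within each slide where it matters. Replicate 4 of 4wd stood apart in the miRNAs of choroid plexus and ependyma, whose summed linear signal was 13.3 times the 75th percentile on that array against 0.917 to 1.80 on the other 4wd arrays and 1.58 to 4.63 on control arrays. Scaling and background correction both set the zero of the differences. Without any scaling the median difference of all tested miRNAs was -0.93. With normexp background correction, which kept the scaling and used an offset of 50, it was 0.83. A sign against 0 under these settings is therefore read beside these medians. Without scaling the median of each of the 15 miRNA lists described below was under 0. With normexp the median of each list except the myeloid one lay under the median of all tested miRNAs. A list's place under that median with normexp is therefore not particular to it.

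**Figure D1:**
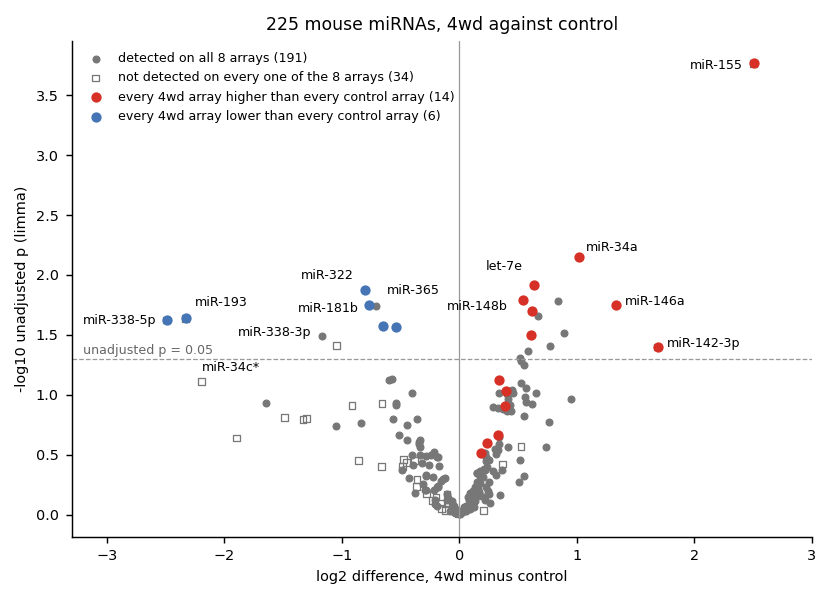
The horizontal axis is the log2 difference (4wd minus control) and the vertical axis the -log10 of the unadjusted limma p for each of the 225 tested miRNAs. Red and blue points are the 14 and 6 miRNAs whose 4 arrays of 4wd lay all above or all below the 4 control arrays. Only miR-155 stands clear of the rest in height, and the lower miRNAs with the largest differences, miR-338-5p and miR-193, have p near 0.02.

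The mature sequences of the miRNAs that carry the result are given first, from RefSeq (build GRCm38.p6), with the seed in capitals. The first set holds the miRNAs of inflammation and of the p53 response that lay higher at 4wd, and miR-146b, the close relative of miR-146a, for comparison.
miR-155: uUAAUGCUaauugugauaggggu
miR-142-3p: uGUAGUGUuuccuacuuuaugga
miR-146a: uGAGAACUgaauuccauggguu
miR-146b: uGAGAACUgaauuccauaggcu
miR-34a: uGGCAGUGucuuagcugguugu
The hairpin of miR-155 lies on chromosome 16 within the lncRNA gene Mir155hg, those of miR-142-3p and miR-146a on chromosome 11, that of miR-146b on chromosome 19 and that of miR-34a on chromosome 4. miR-146a and miR-146b differ at 2 positions outside the seed, G18A and U21C, counted from the 5′ end of miR-146a.

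The second set holds the miRNAs that lay lower at 4wd, with their partners from the same hairpin, the same cluster or the same seed family.
miR-193: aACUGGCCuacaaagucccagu
miR-193b: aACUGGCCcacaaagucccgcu
miR-365: uAAUGCCCcuaaaaauccuuau
miR-181a: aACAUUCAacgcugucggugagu
miR-181b: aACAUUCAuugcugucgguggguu
miR-181c: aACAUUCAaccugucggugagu
miR-181d: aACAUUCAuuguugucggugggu
miR-338-5p: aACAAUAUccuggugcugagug
miR-338-3p: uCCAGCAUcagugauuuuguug
miR-322: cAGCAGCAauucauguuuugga
miR-16: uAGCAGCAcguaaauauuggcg
miR-15a: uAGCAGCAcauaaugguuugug
miR-15b: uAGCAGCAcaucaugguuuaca
miR-27b: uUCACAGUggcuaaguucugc
miR-27a: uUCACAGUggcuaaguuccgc
The array's miR-193 is the arm now named miR-193a-3p, whose hairpin on chromosome 11 has that of 1 copy of miR-365 as its neighbour, while the other copy of miR-365 lies beside miR-193b on chromosome 16. Both arms of miR-338 come from 1 hairpin on chromosome 11 within the span of Aatk. The hairpin of miR-27b lies on chromosome 13 and that of miR-27a on chromosome 8, and the mature miRNAs differ by U19C, counted from the 5′ end of miR-27b.

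The third set holds 4 of the 9 tested members of the let-7 seed family, all of which lay above 0, to show how alike the sequences behind separate probes are.
let-7e: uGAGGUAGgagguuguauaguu
let-7a: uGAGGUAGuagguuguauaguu
let-7c: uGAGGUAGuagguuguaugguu
let-7b: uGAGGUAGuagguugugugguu
Counted from the 5′ end of let-7a, let-7e differs by U9G, let-7c by A19G and let-7b by A17G and A19G. Probes for such close relatives can bind more than 1 of them, so their values are not independent.

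miR-155, made from Mir155hg when macrophages, microglia and lymphocytes are activated, was the 1 miRNA called higher in the main fit. Its signal on the control arrays was -9.15, -8.59, -9.15 and -7.83, and on the 4wd arrays -6.66, -6.38, -6.27 and -5.39. The groups did not overlap, and 2 control arrays were at the floor of the scale, -9.15. The difference was 2.51 (SE 0.48, limma adjusted p = 0.0385), and it was 2.35 on slide 1 and 2.67 on slide 2. This is a difference at the lower edge of what the arrays measure: the image software called miR-155 detected on 0 of 4 control and 1 of 4 4wd arrays. It could be tested only because all 4 arrays of mice returned to regular diet for 2 days detected it. With detection this rare in both groups, the size of the difference has no firm bound. With a higher floor of -6.09, below which 5% of the detected signals of a typical array lie, the difference was 0.17 (adjusted p = 0.94), since most values then lie on the floor. Of the miRNA's 2 probes, 1 was higher by 2.49 and the other by 0.45. The call was kept with slide as a block (adjusted p = 0.0209), with no filter on detection the adjusted p was 0.295, and with any 1 array left out other than replicate 4 of control it was 0.0605 to 0.177.

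miR-142-3p, a miRNA of blood-derived cells that microglia also make, was higher at 4wd on every array but did not pass the test. Control arrays read -4.71, -6.68, -7.36 and -5.22, and 4wd arrays -4.19, -4.52, -3.95 and -4.56. The 4wd arrays lay within a narrow band above a wide control range, with detection on 2 of 4 control and 4 of 4 4wd arrays. The difference was 1.69 (SE 0.74, adjusted p = 0.43), with both probes higher, by 1.56 and 1.81. miR-223, which neutrophils and monocytes carry, lay the other way. It was detected on 4 of 4 control and 0 of 4 4wd arrays, with -5.68, -6.25, -5.65 and -6.20 on control and -8.67, -6.79, -6.05 and -5.91 on 4wd arrays. The groups overlapped, and the difference of -0.91 (adjusted p = 0.55) was -1.77 on slide 1 and -0.06 on slide 2. Of the 5 myeloid miRNAs listed, 4 could be tested and 3 were above 0, with a median difference of 0.96 that became 0.20 with the higher floor. Their summed linear signal was 0.951 to 1.14 on control and 1.13 to 1.41 on 4wd arrays.

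miR-146a, which NF-kB induces and which holds back that pathway through the adaptors Traf6 and Irak1, was higher at 4wd without passing the test. The study picked miR-146a, miR-181b and miR-193 from these same samples. The paper also reports quantitative PCR of these miRNAs in larger groups of mice, with miR-146a higher and the others lower after cuprizone. It does not say whether those mice include the mice of these arrays. That measurement is not part of the arrays, on which the direction of miR-146a is no independent evidence. Control arrays read -3.69, -4.15, -4.06 and -4.28, and 4wd arrays -2.65, -1.81, -2.95 and -3.44. Every 4wd array was above every control array, and the 4wd arrays were spread more widely (SD 0.68 against 0.25). The difference was 1.33 (SE 0.49, a ratio of 2.52, adjusted p = 0.40), with 1.69 on slide 1 and 0.98 on slide 2. Its probes were higher by 1.31 and 1.47, and it ranged from 1.03 to 1.58 when each array was left out in turn. miR-146b, with the same seed, was higher by 0.33 (95% interval -0.31 to 0.96, adjusted p = 0.79), its probes differing by -0.13 and 0.40. The difference between these 2 miRNAs was not tested.

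miR-34a, a target of p53 that represses cell-cycle and survival genes, had the smallest p after miR-155 (unadjusted p = 0.007). Control arrays read -0.90, -0.27, -0.60 and -1.04, and 4wd arrays 0.89, 0.35, -0.13 and 0.15. The groups were apart by little at their edges, -0.27 against -0.13, while replicate 1 of 4wd stood highest. The difference was 1.02 (SE 0.32, a ratio of 2.02, adjusted p = 0.40), and both probes gave it (0.98 and 1.04). The other 4 tested arms of the miR-34 family were below 0, although the median of the family was 0.71 with normexp and went from -0.98 without replicate 4 to 0.18 without replicate 3 of 4wd. Those 4 come from the hairpins of miR-34b and miR-34c, which ciliated ependyma and choroid plexus express. Among them miR-34c* read -5.46, -5.40, -4.04 and -4.99 on control arrays against -9.15, -9.15, -7.44 and -2.92 on 4wd arrays. Both values of -9.15 were at the floor, and miR-34c* was detected on 4 of 4 control and 1 of 4 4wd arrays. With the higher floor its difference over all arrays was -0.32 (limma adjusted p = 0.95). The array with -2.92 was replicate 4, the one with the high choroid plexus and ependyma signal. Without it the difference of miR-34c* went from -2.19 (adjusted p = 0.55) to -3.61, and miR-34c* became the 1 call (adjusted p = 0.0391). The part of that tissue in the other differences was not tested. Without replicate 4 of 4wd, miR-146a was at 1.58, miR-34a at 1.07, miR-193 at -2.57 and miR-181b at -0.79.

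**Figure D2:**
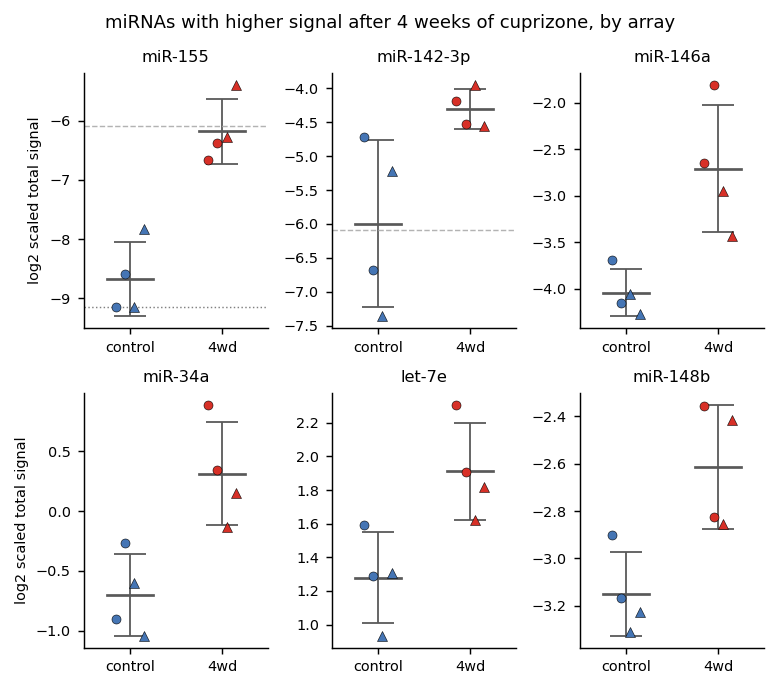
Log2 scaled total signal (vertical axis) on each control (blue) and 4wd (red) array for 6 miRNAs that lay higher at 4wd, with circles for slide 1, triangles for slide 2, and bars for the mean and SD of 4 arrays. The dotted line is the floor (-9.15) and the dashed line the higher floor (-6.09). In all 6 panels the lowest 4wd array is above the highest control array, and for miR-155 nearly all values lie near or under the higher floor.

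In all, 14 miRNAs (6.22% of those tested) lay higher on every 4wd array than on any control array, a separation that gives an exact permutation p of 0.0286 for each. In addition to miR-155, miR-142-3p, miR-146a and miR-34a they were let-7e, miR-148b, miR-433, miR-485, miR-129-3p, miR-543, miR-342-5p, miR-323-3p, miR-434-3p and miR-324-5p. The last 4, named after their values were seen, differed by 0.18 to 0.39. miR-148b, a member of the family of miR-148a and miR-152, read -2.90, -3.17, -3.31 and -3.23 on control and -2.36, -2.82, -2.86 and -2.42 on 4wd arrays. Its difference was 0.54 (SE 0.19, adjusted p = 0.40), whereas the 3 tested miRNAs of its seed, itself included, had a median of -0.19 (0.04 without replicate 1 of control, 0.02 without replicate 4 of 4wd and 1.01 with normexp).

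Several of the separated miRNAs come from the imprinted region between Dlk1 and Dio3 on chromosome 12, a large cluster of miRNAs transcribed from the maternal copy and rich in neurons. miR-433 read -2.80, -2.36, -2.36 and -2.93 on control arrays and -2.22, -2.17, -1.72 and -1.86 on 4wd arrays, a difference of 0.62 (adjusted p = 0.40). miR-433 had SDs of 0.29 on control and 0.24 on 4wd arrays, and its probes differed by 0.65 and 0.04. miR-543 read -3.32, -2.98, -3.50 and -3.36 against -2.92, -2.91, -2.90 and -2.85, a difference of 0.40 with an SD of 0.22 among the control and 0.03 among the 4wd arrays. Over the 39 tested miRNAs matched to that region, however, 22 were above 0 with a median of 0.09, and the share above 0 over all tested miRNAs was 52%, so that these 39 as a whole lay near the background. Of these 39, 4 were separated upward and 0 downward, beside 6.22% and 2.67% of all tested miRNAs. miRNAs without a RefSeq match could not be placed in or outside the region. miR-485, also separated upward, is such a miRNA, so the count of 4 can be too low. Without replicate 3 of control the median of the 39 was -0.02 with 19 of 39 above 0, and without replicates 1 or 4 of 4wd it was 0.17. miR-129-3p, a neuronal miRNA from another locus, read 1.43, 1.64, 1.71 and 1.61 on control and 1.84, 1.93, 1.93 and 2.04 on 4wd arrays, a difference of 0.34 (adjusted p = 0.55) that turned to -0.08 with normexp background correction.

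The let-7 family, which is abundant in differentiated cells, lay above 0 in 9 of 9 tested members, with differences from 0.13 (let-7i) to 0.63 (let-7e) and a median of 0.43 against 0.03 over all tested miRNAs. With normexp background correction the family lay at a median of -0.10 with 2 of 9 above 0, without scaling at -0.54 with 0 above 0, and with quantile normalization at 0.11 with 9 above 0. Its direction against 0 thus depended on the scaling and the background correction. Relative to the median of all tested miRNAs it was at 0.39 without scaling, with 9 of 9 above that median. It was at 0.08 with quantile normalization and at -0.94 with normexp, where 0 of 9 were above that median. Without replicate 3 of control 7 of 9 were above 0 with a median of 0.29, and without replicate 1 of 4wd the median was also 0.29. 0 of the 9 were called, and 2 had an unadjusted p under 0.05 where 6.22% of all tested miRNAs were higher at that level. With slide as a block these were 5 of 9, where 10.2% of all tested miRNAs were higher with such a p. let-7e read 1.59, 1.29, 0.93 and 1.31 on control and 2.31, 1.91, 1.62 and 1.82 on 4wd arrays. Its groups did not overlap (0.63, SE 0.22, adjusted p = 0.40). The hairpin of let-7e lies on chromosome 17 next to that of miR-125a, within the span of Spaca6, and miR-125a-5p was higher by 0.55 (adjusted p = 0.50). let-7b and let-7c, neighbours on chromosome 15, were higher by 0.53 and 0.51 (adjusted p = 0.49 and 0.48), and let-7a by 0.45. On slide 1 the differences of let-7b and let-7c were 0.79 and 0.69, and on slide 2 they were 0.26 and 0.34.

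The miR-29 family, known to repress collagens and other matrix genes, was above 0 in 3 of 3 members (0.12 to 0.44), with a median of 0.31 that turned without scaling (-0.67) and with normexp (-0.21) and was 0.08 without replicate 3 and 0.52 without replicate 1 of control. Relative to the median of all tested miRNAs the family was at 0.27 without scaling and at -1.04 with normexp. The other arm of 1 of its hairpins, miR-29b*, which was named after its values were seen, was higher by 0.84 (SE 0.30, adjusted p = 0.40). It read -5.83, -6.08, -6.94 and -6.09 on control and -5.28, -4.999, -5.87 and -5.43 on 4wd arrays. The groups overlapped by 1 array. 4 further miRNAs had an unadjusted p under 0.05 without separated groups: miR-328, miR-709, miR-720 and miR-326, with differences of 0.67, 0.89, 0.77 and 0.59. They too were named after their values were seen, and all 4 had adjusted p of 0.40 to 0.44.

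On the lower side, no miRNA passed the test and 6 (2.67% of those tested) lay lower on every 4wd array than on any control array: miR-193, miR-338-5p, miR-322, miR-181b, miR-532-5p and miR-27b. Of these, miR-193 and miR-338-5p were detected on every control but not every 4wd array. Detection in control, where they read higher, was enough for them to be tested. Among the 191 miRNAs detected on all 8 arrays, 4 were separated downward and 12 upward. miR-193 (miR-193a-3p, known as a suppressor of tumour growth) read -3.001, -4.37, -4.22 and -3.77 on control and -7.61, -6.13, -5.49 and -5.45 on 4wd arrays. The groups were more than 1 unit apart, and replicate 1 held both the highest control and the lowest 4wd value. The difference was -2.33 (SE 0.90, a ratio of 0.199, adjusted p = 0.40), with -3.18 on slide 1 and -1.47 on slide 2. It was detected on 4 of 4 control and 3 of 4 4wd arrays, and both probes were lower (-2.28 and -1.79). With normexp background correction the difference was 0.82, close to the median of all miRNAs under that correction (0.83).

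miR-365, whose 2 copies lie beside miR-193 and miR-193b, had a difference of -0.71 (SE 0.26, adjusted p = 0.40) and was singled out after its values were seen for its place beside miR-193. Its values were -0.74, -0.90, -1.71 and -1.12 on control and -1.59, -1.74, -2.14 and -1.84 on 4wd arrays. Replicate 3 of control was the 1 array that reached into the 4wd range. With slide as a block its unadjusted p was 0.002 (adjusted p = 0.14). miR-193b, the neighbour of the other miR-365 copy, differed by -0.28 (95% interval -1.10 to 0.54, adjusted p = 0.88). These arrays read only the mature miR-365, so signal from its 2 loci cannot be told apart.

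The miR-181 family, which tunes immune cell and glial signalling, lay below 0 in 4 of 4 members with a median of -0.36 (0.21 with normexp). Relative to the median of all tested miRNAs it was at -0.39, and at -0.62 with normexp. Under that correction every list except the myeloid one lay under the median of all. Without replicate 3 of control the median was -0.13 and without replicate 1 of 4wd -0.20, each with 1 of 4 above 0, and with other single arrays left out it was -0.54 to -0.29. miR-181b read -0.50, -0.88, -0.34 and -0.69 on control and -1.42, -1.55, -1.20 and -1.30 on 4wd arrays. The 2 groups were each tight, with SDs of 0.23 and 0.15, and did not overlap. The difference was -0.77 (SE 0.28, a ratio of 0.588, adjusted p = 0.40), close to the same on slide 1 (-0.80) and slide 2 (-0.73) and in both probes (-0.81 and -0.73). miR-181a, miR-181d and miR-181c, of the same seed, differed by -0.32, -0.40 and -0.05, each with overlapping groups and adjusted p of 0.80 or more. miR-181a and miR-181b are made together from a cluster on chromosome 1 and another on chromosome 2. The arrays read only the mature miRNAs, so the signal of miR-181a and miR-181b cannot be assigned to either cluster. miR-181a-1*, the other arm of the miR-181a hairpin on chromosome 1, was also below 0, at -0.66.

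miR-338 and miR-219 rise as oligodendrocyte precursors mature and repress factors that keep precursors dividing. Both arms of the miR-338 hairpin were lower. miR-338-3p read 2.89, 1.56, 0.61 and 1.81 on control and 0.80, 0.02, 0.71 and 0.65 on 4wd arrays. Replicate 3 of control lay within the 4wd range, and replicate 1 of control was the highest. The difference was -1.17 (SE 0.49, adjusted p = 0.40), with -1.81 on slide 1 and -0.53 on slide 2, and it became -0.78 without replicate 1 of control. miR-338-5p read -5.51, -5.82, -4.67 and -4.92 on control arrays and -9.15, -9.15, -6.48 and -6.08 on 4wd arrays, of which the first 2 were at the floor. It was detected on 4 of 4 control and 2 of 4 4wd arrays, and its difference of -2.49 (SE 0.97, adjusted p = 0.40) was -0.86 with the higher floor and turned to 1.13 with normexp. Over the 31 hairpins with both arms tested, 18 had arms of the same sign.

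miR-219 read 1.81, 0.35, -1.32 and 0.46 on control and -0.17, -1.23, -0.12 and -0.51 on 4wd arrays. It was detected on all 8 arrays, as was miR-338-3p. The control arrays ranged wider than the difference between the groups, which was -0.83 (95% interval -2.07 to 0.41, adjusted p = 0.60). It was -1.78 on slide 1 and 0.11 on slide 2. In whole tissue, fewer oligodendrocytes and less of a miRNA in each of them cannot be told apart. Of the 6 oligodendrocyte miRNAs listed, 3 lay below 0 (both arms of miR-338 and miR-219) and 3 above (0.13 to 0.31, miR-27a among them). 2 of the 6 were lower at an unadjusted p under 0.05, where 4% of all tested miRNAs were, and 0 passed the test. The median was -0.35 (0.02 with normexp, 0.13 over those detected on all 8 arrays, -0.13 without replicate 1 and -0.63 without replicate 3 of control). Relative to the median of all tested miRNAs it was -0.38. That relative value was -0.82 with normexp, where every list except the myeloid one was negative, and 0.04 over those detected on all 8 arrays. The summed linear signal of all 6 was 5.68 to 15.01 on control and 5.85 to 6.83 on 4wd arrays. The wide control range came from replicate 1, at 15.01, beside 7.396, 5.68 and 8.17 on the other 3.

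**Figure D3:**
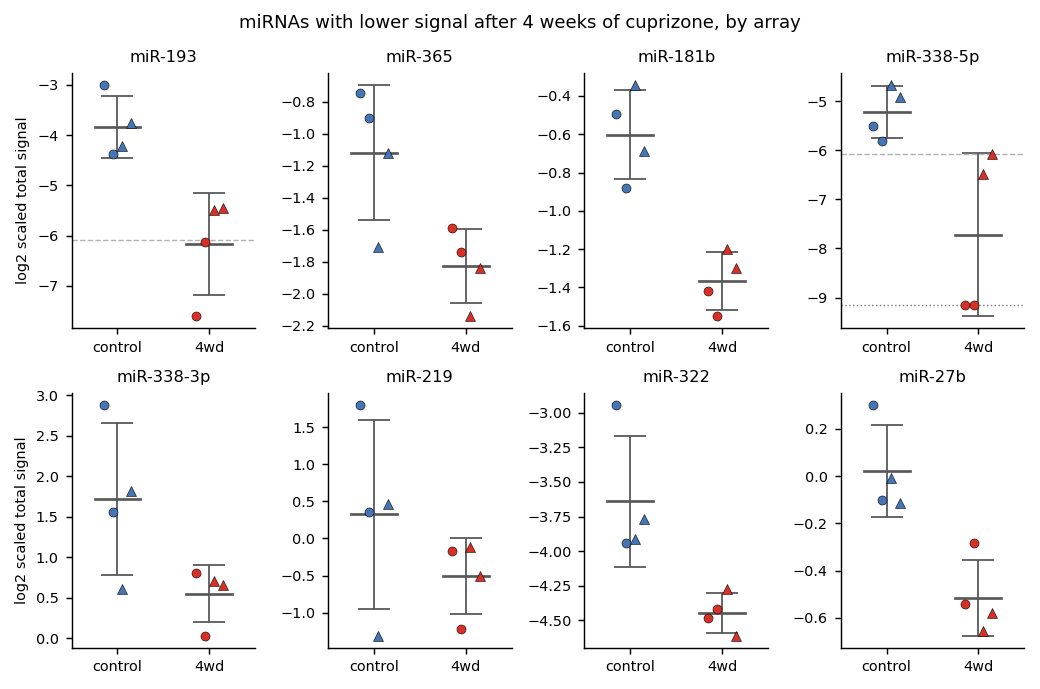
Log2 scaled total signal (vertical axis) on each control (blue) and 4wd (red) array for 8 miRNAs with a lower mean at 4wd, with circles for slide 1, triangles for slide 2, and bars for the mean and SD of 4 arrays. The dotted line is the floor (-9.15) and the dashed line the higher floor (-6.09). miR-193, miR-181b, miR-338-5p, miR-322 and miR-27b are separated, whereas in miR-365, miR-338-3p and miR-219 replicate 3 of control (the lowest control triangle) reaches the 4wd values.

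miR-322, the mouse relative of miR-424 and a member of the seed family of miR-15 and miR-16, which slow the cell cycle, read -2.94, -3.94, -3.91 and -3.77 on control and -4.48, -4.42, -4.27 and -4.61 on 4wd arrays. Apart from replicate 1 of control, the groups lay within 1 unit of each other. The difference was -0.81 (SE 0.28, adjusted p = 0.40), which became -0.57 without that array and turned to 0.85 with normexp. Of the other members of its seed, miR-16 and miR-15a differed by -0.57 and -0.51 (adjusted p = 0.55 and 0.72) and miR-15b by 0.12 (adjusted p = 0.98). miR-195 and miR-497, which form a cluster on chromosome 11, differed by -0.54 and -0.18 (adjusted p = 0.55 and 0.95). The 6 tested miRNAs matched to this seed thus lay at a median of -0.52 with 5 below 0, which was -0.27 without replicate 1 of control, -0.32 without replicate 4 of 4wd and 0.20 with normexp. They share a seed but not a locus: miR-322 lies on chromosome X, miR-15a with 1 copy of miR-16 on chromosome 14, and miR-15b with the other copy on chromosome 3.

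miR-27b, which lies with miR-23b and a copy of miR-24 within the span of Aopep, read 0.30, -0.10, -0.01 and -0.11 on control and -0.54, -0.28, -0.66 and -0.58 on 4wd arrays. The difference was -0.54 (SE 0.21, adjusted p = 0.40), near equal on both slides (-0.51 and -0.56). miR-27a, which differs from it by 1 base, had a difference of 0.24 (95% interval -0.29 to 0.76, adjusted p = 0.81). The 5 miRNAs of both clusters had a median of 0.09 with 3 above 0 (-0.07 with 1 above 0 without replicate 2 of 4wd). miR-532-5p read -3.26, -3.60, -3.69 and -3.76 on control and -4.67, -4.09, -4.15 and -3.999 on 4wd arrays, a difference of -0.65 (adjusted p = 0.40) that turned to 0.88 with normexp. miR-532-3p, from the other arm, was at -1.65 (adjusted p = 0.55), where replicates 1 and 2 of 4wd were at the floor. The remaining miRNA with an unadjusted p under 0.05, miR-362-3p, had a difference of -1.05, was detected on 3 of 4 control and 1 of 4 4wd arrays, and was named after its values were seen.

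Among all 566 mouse miRNAs, 191 were detected on all 8 arrays and 255 on none. 97 were detected on more control than 4wd arrays and 7 on more 4wd arrays, beside the lower brightness of the 4wd arrays. A miRNA seen on at least 3 arrays of 1 group and on 0 of the other was found 7 times, each time in control: miR-151-3p, miR-223, miR-24-1*, miR-325, miR-33, miR-330 and miR-467b. miR-33, made from an intron of Srebf2 and a regulator of cholesterol export, read -4.75, -6.68, -6.34 and -5.38 on control and -9.15, -9.15, -6.64 and -7.31 on 4wd arrays. miR-33 was detected on 3 of 4 control arrays, was not among the miRNAs tested, and differed by -0.51 with the higher floor. With 4wd values taken as no lower than the lowest detected signal of each array, it was 4.58-fold lower. This is no firm bound, since miR-467b, undetected at 4wd, read -5.515 on replicate 2 of 4wd. Measured against the 5th percentile of detected signals instead, none of the 7 had a fold above 1. For miR-330 and miR-467b the mean signals were higher at 4wd by 0.14 and 0.02, and for miR-330 the detection call on 4 control arrays stood beside a total signal at the floor on 2 of them, so the call and the total can part at this level.

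In the lists of neuron, vessel, red blood cell and gliosis miRNAs 0 passed the test, and miR-129-3p was the 1 member with separated groups, where 0.444% of all tested miRNAs passed and 6.22% were separated upward and 2.67% downward. Of 13 neuron-enriched miRNAs, all detected on all 8 arrays, 8 were above 0 with a median of 0.12, which went from -0.01 without replicate 2 to 0.29 without replicate 4 of 4wd. miR-124, the main miRNA of neurons, differed by 0.06 (95% interval -0.57 to 0.69, adjusted p = 0.98). The summed linear signal of these 13 was 36.3 to 41.0 on control and 26.8 to 51.6 on 4wd arrays. miR-126-3p, the endothelial miRNA from Egfl7, differed by -0.03 (95% interval -0.55 to 0.50). miR-451, which red blood cells carry, differed by -0.45 (adjusted p = 0.62). Of the 9 tested miRNAs of gliosis and proliferation, 6 were above 0 with a median of 0.22, but without replicate 3 of control 4 were above 0 with a median of -0.11, and with other single arrays left out the median was 0.08 to 0.32. miR-21, which reactive astrocytes induce, read 1.23, 0.15, -0.50 and 0.50 on control and 0.94, 1.01, 0.83 and 0.24 on 4wd arrays, a difference of 0.41 (95% interval -0.37 to 1.19, adjusted p = 0.77). Of the 8 miRNAs linked to NF-kB, 6 were above 0 with a median of 0.31, where 52% of all tested miRNAs were above 0. They include miR-155, miR-146a, miR-181b and miR-193, described above, of which the study picked all but miR-155 from these same samples. With quantile normalization 5 of 8 were above 0. Relative to the median of all tested miRNAs the list was at -0.36 with normexp, with 3 of 8 above that median. The miR-30 family lay below 0 in 4 of 5 members with a median of -0.21 (0.07 with normexp, and -0.40 to -0.06 with single arrays left out, the extremes without replicates 1 and 3 of control). Relative to the median of all tested miRNAs it was at -0.24, and at -0.76 with normexp, where all lists but the myeloid one were negative.

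**Figure D4:**
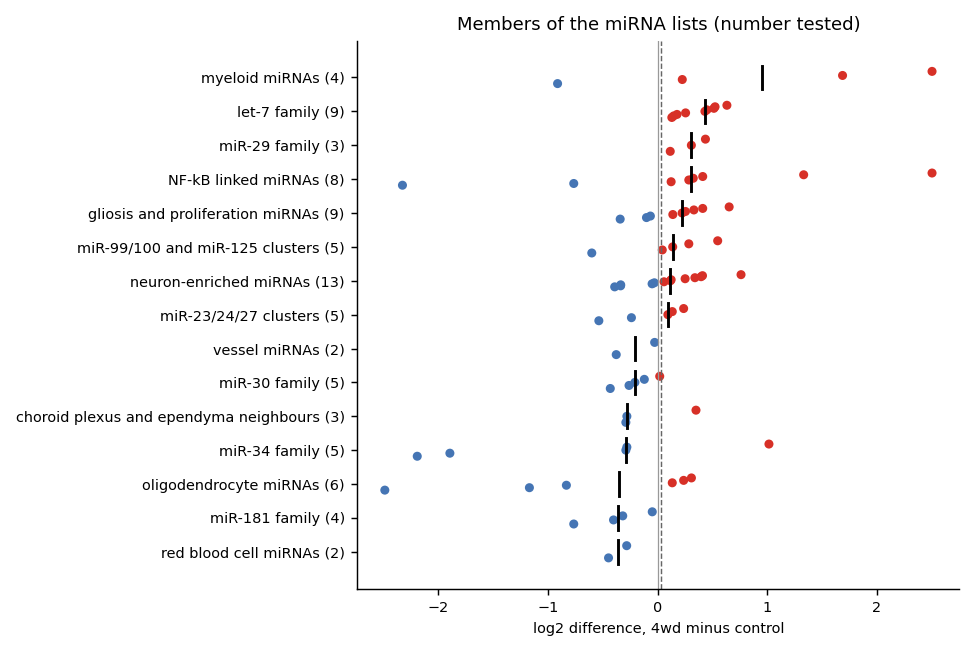
Log2 difference (4wd minus control, horizontal axis) of each tested member of the 15 miRNA lists, with the number tested in brackets, red above 0 and blue below. The black bar is the median of the list and the dashed line the median of all 225 tested miRNAs (0.03). The let-7 members lie between 0.13 and 0.63, while the myeloid, NF-kB linked and oligodendrocyte lists spread over more than 2 log2 units.

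The slides were then compared, since each holds 2 arrays of each group. The difference had the same sign on both slides for 139 of the 225 tested miRNAs, and for 23 of the 23 with an unadjusted p under 0.05, which were chosen on the same arrays. With slide as a block in the fit, 40 miRNAs (17.8%) had an unadjusted p under 0.05, 23 higher (10.2%) and 17 lower (7.56%), against 23 (10.2%) without it. miR-155 stayed the 1 call. Differences of 2-fold or more were found for 15 miRNAs, 4 higher and 11 lower, but for 5 (2 higher and 3 lower) among the 191 detected on all 8 arrays. Across miRNAs, the difference had a Spearman correlation of 0.16 with the mean control signal (n = 225 miRNAs) and of 0.00127 over the 191 detected on all 8 arrays. With the GC share of the mature sequence, known for 192 of the 225, it was 0.07. These are descriptions over miRNAs that share the same 8 arrays.

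**Figure D5:**
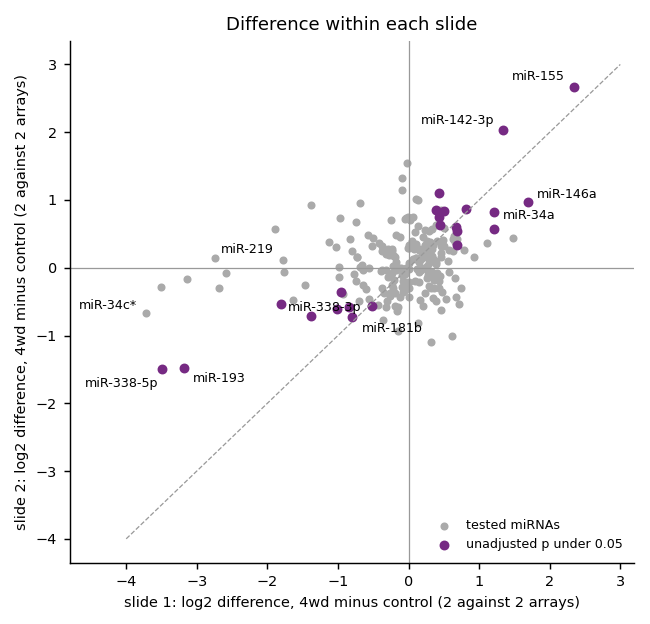
Log2 difference (4wd minus control) on slide 1 (horizontal axis) and slide 2 (vertical axis), each from 2 against 2 arrays, for the 225 tested miRNAs. Purple points have an unadjusted p under 0.05 over all arrays, and the dashed line marks equal differences. miR-155 and miR-181b lie near the line, miR-193 and miR-338-5p are more negative on slide 1, and miR-219 is near 0 on slide 2.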

How the data were processed

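Corpus callosum RNA of 14 mice was hybridized to single-colour Agilent miRNA arrays. Per the file headers, the authors' image software (Agilent Feature Extraction 10.5.1.1, the version in the submitters' processing notes) deposited background-subtracted signal intensity per spot and a total signal intensity per miRNA on a linear scale, with detection calls and no scaling between arrays. The authors' deposited series table of log2 values was used as an alternative only.

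The 75th percentile of each array, over 170 miRNAs with detection throughout the 14 arrays, served as the divisor of its total signals. Values under 0.00176 (-9.15 as log2) were raised to that floor before log2 was taken. Of 566 mouse miRNAs, 225 had detection throughout some group and were tested. Control spots and 10 viral miRNAs were left out. One model of the 4 groups was fitted with limma 3.58.1 (R 4.3.3), with Benjamini-Hochberg adjustment. A call needed adjusted p under 0.05 and 2-fold. Exact two-sided permutation tests used scipy 1.17.1. The fit was tested on simulated data. The number of arrays limits the precision.

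The text names the miRNAs called, the 10 highest and 10 lowest by moderated t with separated groups, those the study names, those detected in 1 group only, examples of the lists and those said to be chosen after their values were seen. The members, lists and tests were chosen with earlier results of these data known. Array names were matched to RefSeq for 192 of 225 miRNAs. Hairpin positions come from GRCm38.p6, and as the array was designed on another build only chromosomes and neighbours are given.

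Same-numbered control and 4wd arrays, which also share a slide, deviated together (correlations of deviations from the group means of 0.29 to 0.71 in 4 of 4 pairs). Control and 4wd arrays of the same slide with different numbers did so too (0.25 to 0.56). Of the 4wd arrays, 2 of 4 correlated best with their own number. A pairing by number therefore cannot be told from the shared slide, and the number was a block only in an alternative fit. No pair of arrays was closer than a median difference of 0.28 (log2).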

Additional observations from a re-analysis of the deposited data

Results flagged for a closer look

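For let-7b, replicate 4 of control (2.54) lay apart from the other 3 control arrays, the nearest of which was at 2.98, so that the gap took 0.968 of the group's range. This was 1 of 104 groups of 4 arrays examined in this way among the miRNAs named, and chance alone gives about 1 in 20. Its cause was not tested.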

How the results depend on the processing

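miR-155 stayed the only call with quantile normalization, the 75th percentile over all mouse miRNAs, slide as a block with and without quantile normalization, the fit of 2 groups and the authors' processed values. The fit of 2 groups kept the scaling, the floor and the choice of miRNAs from all 14 arrays. With the replicate number as a block, 1 miRNA was called, again miR-155, and the block changed no other call. The count was 0 with the mean of the spots, no filter, no scaling, tests limited to miRNAs detected on all 14 or all 8 arrays, a floor 4 times lower, the higher floor with and without slide as a block, trend and robust estimation, and the methods' test. Leaving out each array in turn gave 0 to 1 calls, namely miR-155 without replicate 4 of control, miR-34c* without replicate 4 of 4wd, and 0 without each of the other 6 arrays. Normexp background correction, run on the spots' median signal because the files hold no mean, called 82.

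The median difference over all tested miRNAs went from 0.03 to 0.83 with normexp and to -0.93 without scaling, and ranged from 0.001 to 0.08 with single arrays left out. The 14 miRNAs separated upward became 102 with normexp, 8 with the 75th percentile over all miRNAs, 8 with quantile normalization, 0 without scaling and 6 with the authors' values. The 6 separated downward became 0 with normexp and 52 without scaling. With single arrays left out, these counts were 14 to 23 and 6 to 17, the highest without replicate 3 of control. Within slide 1, 57 and 50 miRNAs were separated, and within slide 2, 54 and 38, each from 2 against 2 arrays.

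Of the 52 miRNAs named with a test, 10 kept their direction in every setting. Directions here are against 0, while the median of all tested miRNAs was itself -0.93 without scaling and 0.83 with normexp. Without scaling these turned below 0: let-7e -0.34, miR-148b -0.43, miR-433 -0.35, miR-485 -0.36, miR-129-3p -0.63, miR-543 -0.58, miR-330 -0.56, miR-21 -0.56, miR-124 -0.92, let-7b -0.45, let-7c -0.46, let-7a -0.52, miR-146b -0.65, miR-15b -0.85, miR-27a -0.74, miR-29b* -0.14, miR-125a-5p -0.42, miR-328 -0.30, miR-709 -0.085, miR-720 -0.21, miR-326 -0.39, miR-342-5p -0.58, miR-323-3p -0.64, miR-434-3p -0.74, miR-324-5p -0.79. With normexp these turned: miR-129-3p -0.080, miR-322 0.85, miR-193 0.82, miR-338-5p 1.13, miR-532-5p 0.88, miR-223 1.27, miR-124 -0.46, miR-451 0.018, miR-365 0.0072, miR-193b 0.56, let-7b -0.073, let-7c -0.041, let-7a -0.10, miR-181c 0.63, miR-181d 0.83, miR-532-3p 1.23, miR-362-3p 1.00, miR-34c* 1.20, miR-195 0.10, miR-497 0.31. Elsewhere the direction turned for miR-124 (-0.31 with quantile normalization, alone or with slide as a block, -0.023 with the authors' values, -0.35 within slide 2), for miR-330 (-0.32 with the lower floor), for miR-181c (0.098 within slide 1), for miR-497 (0.20 within slide 1) and for miR-219 (0.11 within slide 2). With single arrays left out, the differences ranged from -0.079 to 0.48 for miR-330, -0.13 to 0.29 for miR-124, -0.17 to 0.14 for miR-126-3p, -0.20 to 0.079 for miR-181c, -0.44 to 0.042 for miR-497 and -0.096 to 0.38 for miR-15b, and each crossed 0.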
